A study of Drosophila melanogaster with 4 samples.

Results

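TBP peaks were described at the Wnt gene cluster of chromosome arm 2L, which holds Wnt4, wg, Wnt6 and Wnt10, and at the hedgehog (hh) locus of 3R, in Drosophila melanogaster embryos. The members were all peaks of the deposited list that overlap 2L 7245000 to 7400000 or 3R 18945000 to 18980000, both on FlyBase release 5. They numbered 14 of the 7769 peaks in the list, 11 at the Wnt cluster and 3 at hh, and none crossed an edge of its window. Positions alone chose them, and no score or width entered the rule.

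The series mapped TATA-binding protein (TBP) by chromatin immunoprecipitation and sequencing (ChIP-seq), with 2 TBP libraries and 2 libraries of input DNA, the sheared chromatin before immunoprecipitation. By the labels, all 4 libraries came from embryos of stage 0 to 8 h, sex unknown, of the strain Exd-GFP-13T with genotype w; PBac{y[+]-attP-3B}VK00033. That strain carries a genomic copy of extradenticle (exd) in which GFP takes the place of the stop codon, so the controls carry it too. The antiserum was a crude rabbit polyclonal against TBP and not against the tag. The extraction text instead describes y; bw cn sp flies and an 8 to 16 h collection, and which of these accounts holds is not known. Whole embryos mix every cell type, so a peak does not say in which cells TBP was bound, and fewer cells with TBP at a site cannot be told apart from less TBP per cell. The authors' 1 list covers all libraries, so no peak has a value per replicate, no error between replicates could be computed and the depth behind each peak is unknown. No test was therefore run, and every comparison below is a description of this list.

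TBP is a subunit of TFIID that contacts DNA at core promoters, where RNA polymerase II is assembled before transcription starts. The Wnt proteins are secreted, lipid-modified glycoproteins that signal through Frizzled receptors. The founding fly member, wingless (wg), is a segment polarity gene, and its protein stabilises Armadillo, the fly beta-catenin. Wnt4, Wnt6 and Wnt10 encode further ligands of the family. Hedgehog is a secreted ligand of a different family, received by Patched and relayed by Smoothened and the transcription factor Ci. In the embryonic ectoderm, cells that make Hedgehog lie next to cells that make Wingless, and each signal helps to keep the other expressed.

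In the supplied gene table of release 6, all 5 genes were found on the arms that the windows name. Their order on 2L was Wnt4, CG31909, wg, lncRNA:CR45304, Wnt6 and Wnt10, with CG13786 next to Wnt4 and asRNA:CR44063 and ninaC, the myosin kinase gene of photoreceptors, beyond Wnt10. On 3R the neighbours of hh were CG31457 and unk (unkempt, a zinc finger gene). The peaks belong to release 5, so the table served for names and neighbours alone. Peaks are given by their release 5 positions, and none was assigned to a gene, a promoter or an intron.

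The Wnt cluster held 4 strong TBP peaks among 7 weak and mostly narrower ones. The median width of the strong peaks was near that of all 2L peaks, and was not set beside that of equally strong 2L peaks. As a count, 4 of 11 was near the arm's share, as 25.1% of all 2L peaks were as strong (at or above the 75th percentile of score). The score is the authors' own value for each peak, on a scale that no source states. It ranged from 6 to 400.63 over the list with a median of 29.65, and was used to rank peaks only. At the Wnt cluster 4 peaks scored between 62.69 and 149.88, and the other 7 scored between 7.89 and 19.04. None lay between 19.04 and 62.69, a range that held 42.8% of all 1349 peaks of 2L. That range was set from the members themselves after their scores had been seen.

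The strongest TBP peak of the Wnt cluster spanned 2L 7306495 to 7307533 and scored 149.88. Its 1039 bp also made it the widest of the cluster. It ranked 46 of 1349 on 2L by score but 478 by width. The peak at 7281257 to 7281955 was next, scoring 125.35 over 699 bp (score rank 72). It was followed by the peak nearest the high end of the window, at 7387681 to 7388446, which scored 83.15 over 766 bp (score rank 179). The weakest of the 4, at 7257988 to 7258457, scored 62.69 over 470 bp (score rank 296). From low to high positions, the centres of these 4 peaks were 23.4, 25.4 and 81.0 kb apart. The arm's 75th percentile of score was 57.13 and its 90th percentile 93.2. Of the 11 members, 4 reached the 75th percentile, as did 25.1% of all 2L peaks, and 2 reached the 90th, as did 10.0% of 2L peaks. With so few members, both counts were near the arm's shares.

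The 7 weak peaks of the Wnt cluster were all below the median score of 2L, which was 28.43. The highest of them, at 7249363 to 7249799, scored 19.04 over 437 bp. The peak at 7276838 to 7277782 was the second widest of the whole cluster at 945 bp, yet it scored 17.51. Among the 50 peaks of 2L nearest to it in width, none scored lower, and their median was 42.33. The lowest score, 7.89, belonged to the first peak of the window, at 7245365 to 7245565. Its 201 bp were shared as the smallest width of the cluster by the peak at 7276571 to 7276771 (score 8.36). No listed peak of 2L was narrower than 201 bp. The remaining 3 weak peaks started at 7254757, 7256108 and 7290052, with scores of 12.95, 8.86 and 18.66 and widths of 406, 398 and 547 bp. A score under 20 was thus found in 7 of 11 members and in 36.2% of 2L peaks. The limit of 20 was chosen after the scores had been seen.

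**Figure D1:**
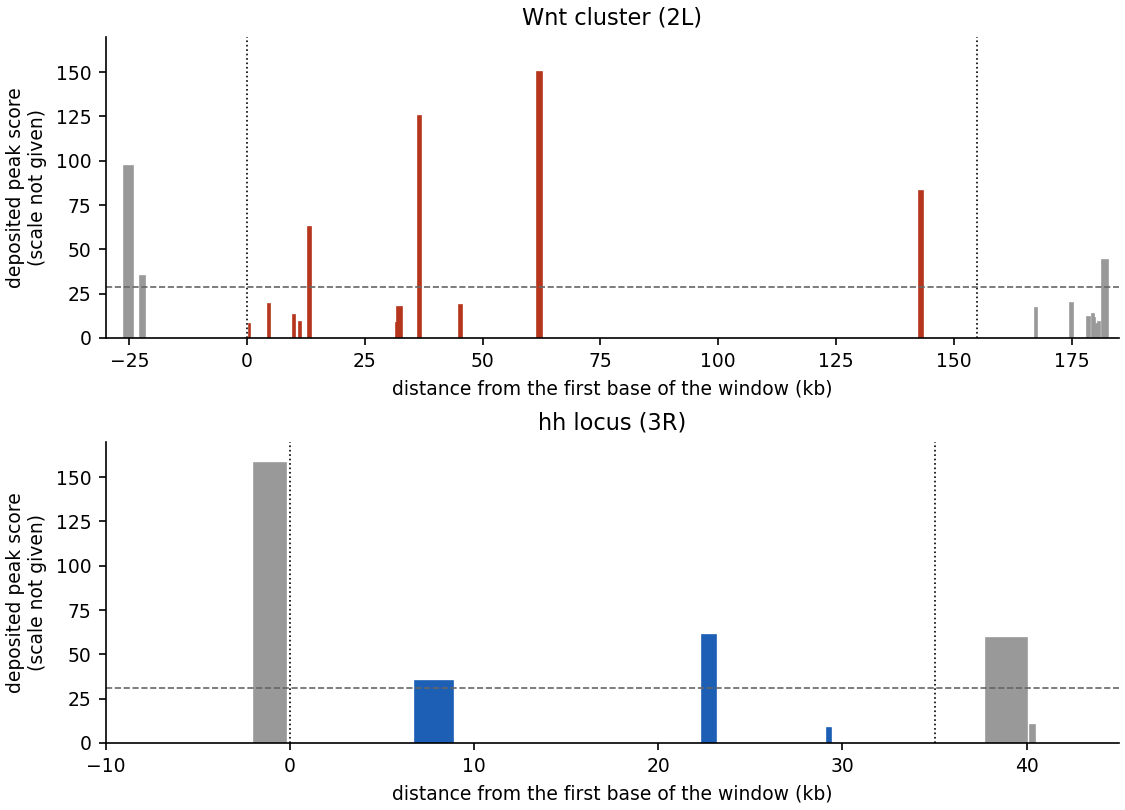
TBP peaks along the Wnt cluster (red, upper panel) and the hh locus (blue, lower panel), each bar spanning the peak's width in kb from the first base of the window, with a thin outline, and reaching to its deposited score. Dotted lines mark the window edges, grey bars are peaks outside them, and the dashed line is the median score of the arm (28.43 for 2L, 30.89 for 3R). Between the red peaks scoring 149.88 and 83.15 lie 80.1 kb without a peak.

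All 4 strong Wnt cluster peaks scored high for their width. Over the arm, wider peaks tended to have higher scores, so each peak was set beside the 50 peaks of 2L nearest in width. The peak at 7281257 had 4.31 times the median score of those 50, and 49 of them scored lower. For the peak at 7306495 the ratio was 3.65, and for the one at 7257988 it was also 3.65, again with 49 of 50 scoring lower in each case. The peak at 7387681 had a ratio of 3.18, with 47 of 50 lower. These ratios ranked 6, 15, 16 and 26 among the 1349 peaks of 2L. A ratio of at least 3 was reached by 4 of 11 members, against 2.22% of 2L peaks (30 peaks). The 4 were picked by score, which also raises the ratio, so high ratios are partly built in. The 2.22% refers to all 2L peaks and not to the 338 at or above the arm's 75th percentile of score.

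Setting the 4 strong peaks beside all 7195 peaks of the 5 long arms (2L, 2R, 3L, 3R and X) gave lower ratios for the weaker pair. There, 7281257 had a ratio of 4.47 and 7306495 of 3.82, whereas 7257988 had 2.86 and 7387681 had 2.71, so that 2 members reached 3 against 1.85% of all. The latter pair ranked 157 and 187 of 7195. One other window of 2L of the same length, at 19800081 to 19955081, held as many as 4 peaks with a 2L ratio of at least 3. None of the 146 other windows held more, and 127 held none. This measure was chosen after the peaks had been seen. The other 7 Wnt cluster peaks had 2L ratios of 0.41 to 1.03.

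**Figure D2:**
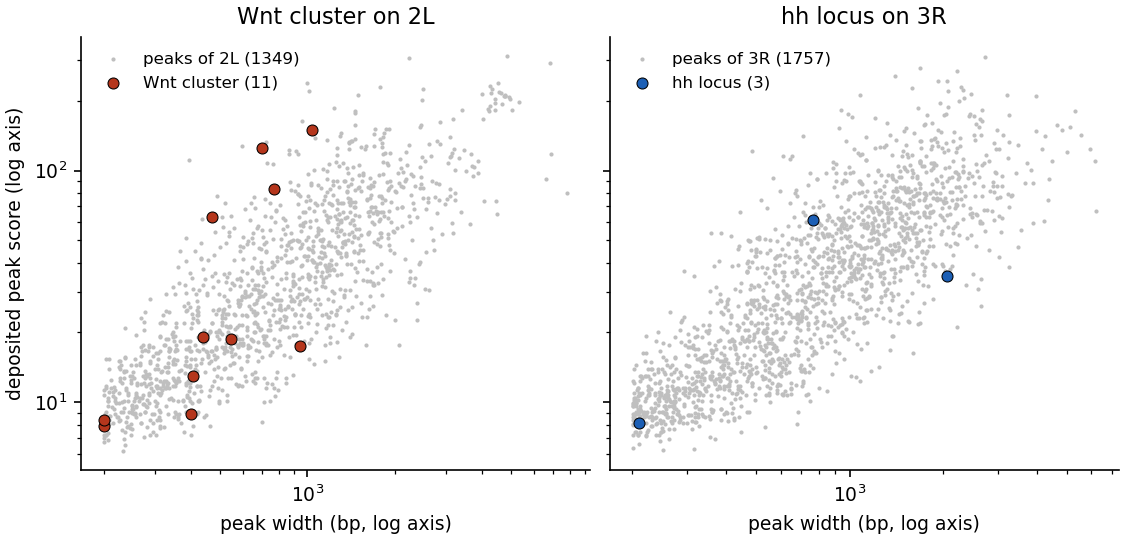
Width in bp against deposited score for every peak of 2L (left, grey) and 3R (right, grey), both axes logarithmic, with the 11 Wnt cluster peaks in red and the 3 hh peaks in blue. The 4 red points scoring 62.69 to 149.88 lie along the upper edge of the 2L peaks, while the widest blue point, at 2059 bp, lies low among 3R peaks of its width.

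The weak TBP peaks of the Wnt cluster had a smaller median width than the strong ones, and their ranges overlapped. Weak and strong were set by score, and wider peaks of the arm tended to score higher. A narrower weak class is therefore partly built in. The 7 weak peaks had a median width of 406 bp (201 to 945 bp) and the 4 strong peaks one of 732.5 bp (470 to 1039 bp). All peaks of 2L, strong and weak alike, had a median of 732 bp, and their middle 50% measured 401 to 1300 bp. Over all 11 the median was 470 bp, within a range of 201 to 1039 bp. Only 3 of the 11 members were wider than the arm's median, as 50.0% of 2L peaks were. None reached 2000 bp, which 9.79% of 2L peaks did, and 6 were narrower than 500 bp, as were 33.1% of 2L peaks, a limit chosen after the widths had been seen. When peaks within 1 kb were merged, the median width of the cluster's regions was 699 bp. The median score was 18.66 against 28.43 over the arm, with 4 of 11 members above the arm's median (49.6% of 2L peaks).

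TBP peaks of the Wnt cluster were gathered towards lower positions. On the side of the window's midpoint with lower positions lay 10 of the 11, and after the strongest peak followed 80.1 kb (7307534 to 7387680) with no listed peak. That gap ranked 59 among the 1348 gaps of 2L, and 4.38% of the arm's gaps were as long or longer. The other 9 gaps in the cluster measured 66 to 18113 bp. Over all 10 the median was 4377 bp, and over the arm 4696 bp. Among the 75 other windows of the same length with at least 8 peaks, 7 had a stretch without peaks at least as long (median longest stretch 44.4 kb). In 5 of those 75, at least 90% of the peaks lay on 1 side of the midpoint. Both measures were chosen after the positions had been seen.

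Peaks less than 5 kb apart were counted as a group. By that limit the Wnt cluster had 1 group of 5 peaks over 13.1 kb, from 7245365 to 7258457. It also had 1 group of 3 over 5.39 kb, from 7276571 to 7281955. A gap of 4957 bp inside the first group was only just under the limit. In both groups at this limit, the strong peak was the last by position. The strongest peak at 7306495 stood alone, as did 7290052 and 7387681. With a limit of 10 kb the weak peak at 7290052 joined the second group and became its last. The 2 strong peaks at 7306495 and 7387681 still stood alone.

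**Figure D3:**
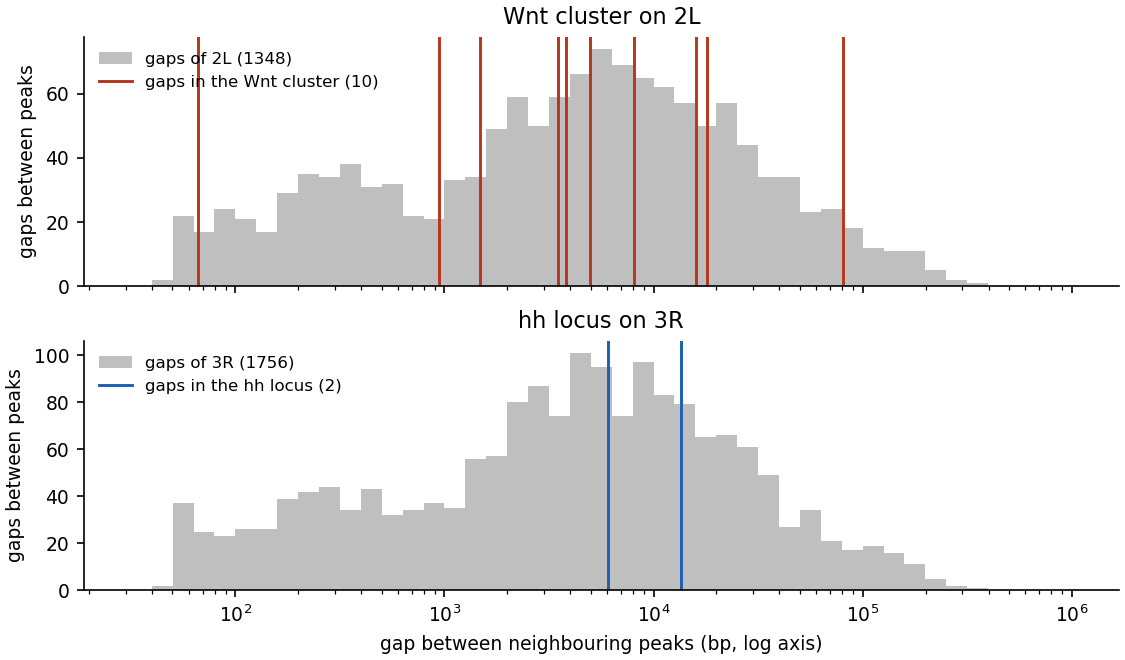
Distances in bp between neighbouring TBP peaks of 2L (upper panel, 1348 gaps) and 3R (lower panel, 1756 gaps) on a logarithmic axis, as grey counts. Coloured lines mark the 10 gaps inside the Wnt cluster, from 66 to 80147 bp, and the 2 inside the hh locus, of 6058 and 13498 bp.

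The number of TBP peaks at the Wnt cluster was ordinary for 2L. The 146 other windows of the same length (155 kb), laid end to end from the locus along the arm, held 9.12 ± 7.08 peaks (mean ± SD over windows, which are not replicates), with a median of 8 and at most 38. Of these windows 67.8% had fewer than 11 peaks, 4.11% had 11 and 28.1% had more. Counting the cluster itself, 32.7% of 147 windows reached 11 peaks. Peaks covered 3.94% of the Wnt cluster, against a median of 4.38% over the other windows, and 47.3% of them were less covered. All 6 of the other windows with 11 peaks were more covered, at 4.69 to 7.75%. The top score of the window stood higher in the same ranking, above that of 84.2% of the other windows, whose median top score was 89.8.

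The windows on either side of the Wnt cluster were both more covered by peaks. The window before it (7089999 to 7244999) held 9 peaks with a median width of 1012 bp and a median score of 52.22. It was 6.56% covered and its top score was 107.41. The window after it (7400001 to 7555001) held 24 peaks, was 15.3% covered and reached a score of 310.61. Its median width of 503.5 bp and median score of 16.67 were near the 470 bp and 18.66 of the cluster. The nearest peaks outside the edges were at 7222211 to 7223327 (score 35.17, 1117 bp), 21.7 kb before the window, and at 7412236 to 7412683 (score 16.61, 448 bp), 12.2 kb after it.

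At the hh locus the widest TBP peak was not the strongest. The strongest, at 3R 18967356 to 18968119, scored 61.08 over 764 bp, a width equal to the median width of 3R. It ranked 428 of 1757 peaks on 3R by score. The widest, at 18951799 to 18953857, measured 2059 bp and scored 35.17, so that it ranked 167 by width and 814 by score. The remaining peak, at 18974178 to 18974387, was 210 bp wide and scored 8.17, which placed it at rank 1713 by score and 1710 by width. The gaps between the 3 peaks were 13.5 and 6.06 kb, against a median of 4399 bp on 3R.

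The hh peaks also differed from each other in score for a given width. None of the 50 peaks of 3R nearest in width to the peak at 18951799 scored lower than it. Its score was 0.46 times their median, and it ranked 1684 of 1757 by that ratio. The peak at 18967356 had 2.04 times the median of its 50, with 45 of them lower (rank 136), and the narrow peak at 18974178 had 0.87 times. None of the 3 reached a ratio of 3, which 1.94% of 3R peaks did. Of the 3 members, 1 reached the 75th percentile of 3R scores (25.0% of 3R peaks), none the 90th (10.2%) and 1 a width of 2000 bp (10.2%). Widths above the arm's median were found in 1 of 3 (49.9% of 3R peaks) and scores above it in 2 of 3 (49.9%). The peak at 18974178 was the 1 member under 500 bp (31.9% of 3R peaks) and the 1 scoring under 20 (35.7%). With 3 members, none of these counts differed from the arm's share by more than 1 peak.

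The hh window was likewise ordinary for its arm in peak number and somewhat above the median in coverage. The 795 other windows of 35 kb on 3R held 2.26 ± 2.43 peaks (mean ± SD over windows), and 257 of them held none. Fewer than 3 peaks were found in 62.4% of them, 3 in 11.3% and more in 26.3%. With the hh window included, 37.7% of 796 windows reached 3 peaks. Peaks covered 8.67% of the hh window, against a median of 3.62% in the others, and 71.4% of these were less covered. Among the 90 other windows with 3 peaks the median coverage was 7.96%, and 50 were less covered. Per 100 kb the hh window held 8.57 peaks, against 6.30 over 3R, and the Wnt cluster 7.10, against 5.88 over 2L. The density at hh rests on 3 peaks. The difference in coverage between them, 8.67 against 3.94%, has no error, and the hh value rests mostly on 1 peak of 2059 bp among 3033 covered bp.

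**Figure D4:**
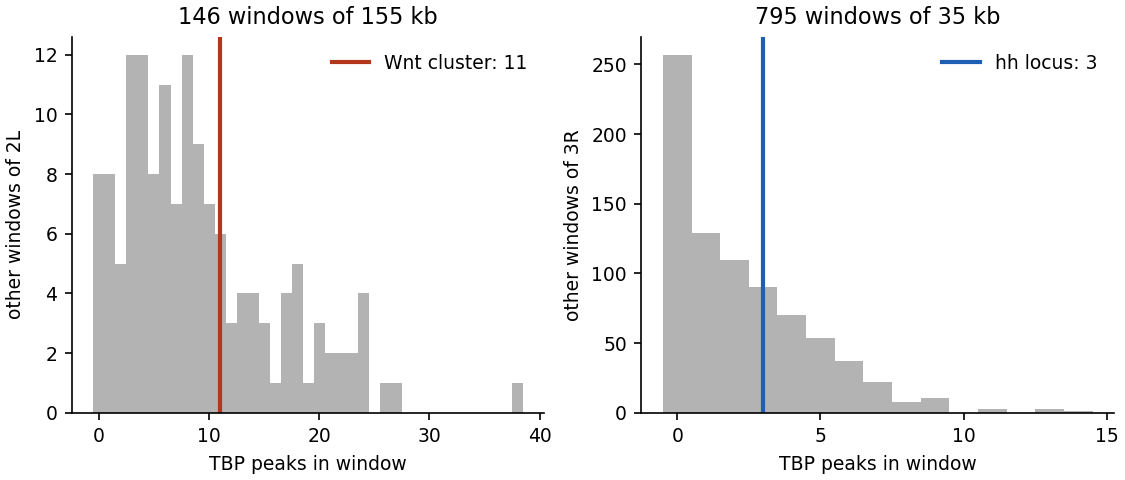
Number of TBP peaks in the other windows of 2L (left, 146 windows of 155 kb) and 3R (right, 795 windows of 35 kb), as counts of windows, with a coloured line at the Wnt cluster (11 peaks) and the hh locus (3 peaks). Both lines lie well inside the range of the other windows, with 28.1 and 26.3% of windows holding more.

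Other peaks lay close to the edges of the hh window. A peak of 1734 bp at 18943045 to 18944778 scored 157.88 and ended 0.222 kb before the window, and its score was higher than that of every hh member. On the far side a peak at 18982786 to 18984997 (score 59.15, 2212 bp) began 2.79 kb after it. Moving the window by 7 kb towards lower positions took in the neighbour there but lost the member at 18974178. It then held 3 peaks and was 13.0% covered. Moved towards higher positions, the window held 5 peaks, the neighbour there among them, and was 15.2% covered. Which of these peaks belong to hh and which to its neighbours was not determined.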

How the data were processed

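The deposited file was a GFF version 3 peak list for the whole series, on FlyBase release 5 per the file headers, whose source field names MACS. Per the submitters' processing notes, MACS2, BWA, CASAVA (1.7.0.2 and 1.7.0.3) and build BDGP5 were used, in roles that are not stated. How peaks were thresholded, whether replicates were pooled and how repeated reads were handled is likewise not stated. For each peak the authors deposited its ends and a score of unnamed scale. Depth per library is unknown.

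Members were peaks with any overlap of either window. Windows of the same length were laid end to end from each locus and kept where they lay wholly between the first and last peak of the arm. Each locus was set beside these windows by count, covered share and top score. Its median width and median score were set beside those of all peaks of its arm and of the windows on either side. Strong meant at or above the arm's 75th or 90th percentile of score, and wide at least 2000 bp. The naming rule took the 5 highest-scoring, 3 widest and lowest-scoring Wnt peaks and all hh peaks, and the other Wnt peaks were named after their values were seen. The members and lists were chosen with earlier results of these data known. The window functions were tested on simulated data and returned the planted counts in 20 of 20 sets. The promoter and protein comparisons planned were not run, as no sequence was used here. No gene was placed on the peaks, so the other genes of the Wnt and Hedgehog pathways were not analysed here. Analyses used Python 3.11.15, numpy 2.4.6, pandas 2.3.3, scipy 1.17.1 and matplotlib 3.10.9.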

Additional observations from a re-analysis of the deposited data

How the results depend on the processing

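No paired analysis was possible because all libraries share 1 list of peaks without values of their own, which also means that leaving out a replicate could not be tried. Each of 79 alternatives was set against a limit. For shares this was the 95% exact binomial interval, and for medians the interval from order statistics, or the whole range of the 3 hh peaks. For counts it was 1.5 times. Of the 79, 56 stayed within the limit and 23 moved further. These limits only sort the alternatives and are not errors. For coverage each base counted as a trial, though bases of a peak are not independent, so that limit is very tight. Limits for medians are wide, so 56 and 23 do not measure how stable the results are. Counting a peak by its centre moved nothing beyond its limit. Keeping only peaks above the list's median score left 4 peaks and 1.92% coverage at the Wnt cluster, with 46.6% of windows holding fewer peaks and 37.7% less covered; at hh coverage became 8.07%, with 68.2% holding fewer and 76.6% less covered. Merging peaks within 1 kb gave 4.59% coverage at the Wnt cluster, and 70.3% of windows with fewer peaks than hh. Moving the edges (by 31 kb for the Wnt cluster, 7 kb for hh) towards lower positions gave 5.49% coverage for the Wnt cluster (58.2% of windows less covered) and 13.0% for hh (83.5%). Towards higher positions, the Wnt cluster had 5.59% coverage, 76.0% of windows with fewer peaks and 60.3% less covered, and hh had 5 peaks, 15.2% coverage, 83.0% with fewer peaks and 86.9% less covered. Among windows with at least 1 peak, 44.4% had fewer peaks than hh and 57.8% were less covered. Moved edges take in outside peaks. Within its count limit, the Wnt window lost 7387681 when moved lower and the 5 peaks up to 7258457 when higher. For other settings the cause was not tested. The 3 alternatives for similar width were chosen after seeing the data. At least 3 times the median was reached by 3 Wnt peaks with 20 neighbours, 4 with 100 and 2 over the 5 long arms. Because depth is unknown, stretches without a listed peak cannot be read as free of TBP.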
